A study of Homo sapiens with 10 samples.

Results

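Tagged EMBOW was called at 13233 positions that lay inside a protein-coding gene and over 5 kb from the nearest end of every protein-coding gene, out of 93143 positions (summits, the highest point of each peak) in its list. These interior summits were chosen by position alone, on chromosomes 1 to 22 and X, with gene spans from RefSeq on GRCh38.p14. Their number, density and spread over gene classes follow from that choice and are given as a description, with no test. The positions came from chromatin immunoprecipitation with sequencing of HEK293T cells, a line from human embryonic kidney that expresses large T antigen of the virus SV40. The tagged microprotein was precipitated on anti-FLAG beads from HEK293T cells with stable expression of EMBOW-FH, and its summits are called EMBOW-F here. WDR5 was precipitated with an anti-WDR5 antibody from EMBOW KO HEK293T cells and from wild-type (WT) HEK293T cells, and these 2 further lists hold 21055 KO and 17660 WT summits. The cells of all 3 lists were cultured alike, and their nuclei were digested with micrococcal nuclease. The sources used here do not say whether the KO or the tagged line was 1 clone, nor how the level of the tagged protein compares with that of the cells' own EMBOW. Each list came from 1 library, and every interval below is a 95% interval for counting error alone, with no replicate check.

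EMBOW is a microprotein encoded in the SCRIB gene that binds WDR5. WDR5 is a protein of WD40 repeats in COMPASS complexes, which methylate histone H3 at lysine 4, a mark found at the start of active genes. The inside of a gene is mostly intron, and the longest human genes are largely genes of neurons and muscle, many of which are silent in kidney cells.

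The promoters of 4 host genes show the gene starts on either side of the WDR5 contrast, since 2 of these genes carried a WDR5 summit at their 5′ end and 2 did not. Each sequence is the RefSeq promoter of GRCh38.p14, 250 bases before to 50 bases after the gene start, 5′ to 3′ on the gene's strand, with the dinucleotide CG in capitals. SPAG16 (chr2:213284214-213284513, plus strand) encodes a protein of the axoneme of sperm and cilia, held 307 interior summits and had WDR5 summits 97 bp past its start in KO and 236 bp past it in WT. GPC5 (chr13:91398371-91398670, plus strand) encodes a glypican, held 216 interior summits and had WDR5 summits 594 bp past its start in KO and 564 bp in WT. CNTNAP2 (chr7:146116551-146116850, plus strand) encodes a neurexin-like adhesion protein of axons, held 349 interior summits and had no WDR5 summit within 1 kb of either end. DPP10 (chr2:114442391-114442690, plus strand) encodes a subunit of neuronal potassium channels, held 221 interior summits and also had no WDR5 summit at its ends.
SPAG16: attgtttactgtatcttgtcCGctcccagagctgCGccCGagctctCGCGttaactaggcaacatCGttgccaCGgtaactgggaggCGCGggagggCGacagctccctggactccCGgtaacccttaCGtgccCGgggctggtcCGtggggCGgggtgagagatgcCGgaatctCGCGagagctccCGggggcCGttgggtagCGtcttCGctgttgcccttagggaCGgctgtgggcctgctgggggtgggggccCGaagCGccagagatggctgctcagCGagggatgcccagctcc
GPC5: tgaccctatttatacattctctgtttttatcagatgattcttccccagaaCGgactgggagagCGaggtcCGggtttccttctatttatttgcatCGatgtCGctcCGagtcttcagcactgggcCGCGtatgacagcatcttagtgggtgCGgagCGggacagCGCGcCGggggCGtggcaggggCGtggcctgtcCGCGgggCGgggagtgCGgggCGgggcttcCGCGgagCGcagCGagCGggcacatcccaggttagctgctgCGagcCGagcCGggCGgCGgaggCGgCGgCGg
CNTNAP2: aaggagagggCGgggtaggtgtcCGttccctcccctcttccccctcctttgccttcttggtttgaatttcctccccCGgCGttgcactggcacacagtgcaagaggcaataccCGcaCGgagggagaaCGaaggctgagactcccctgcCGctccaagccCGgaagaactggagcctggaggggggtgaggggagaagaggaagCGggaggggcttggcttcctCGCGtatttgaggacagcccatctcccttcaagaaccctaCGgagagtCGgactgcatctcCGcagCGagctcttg
DPP10: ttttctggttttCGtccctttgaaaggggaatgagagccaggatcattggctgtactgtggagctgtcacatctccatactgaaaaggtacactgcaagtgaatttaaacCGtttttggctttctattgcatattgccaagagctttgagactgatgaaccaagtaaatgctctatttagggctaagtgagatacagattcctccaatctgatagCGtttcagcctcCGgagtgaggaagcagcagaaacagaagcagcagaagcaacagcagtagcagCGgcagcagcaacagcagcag
The SPAG16 promoter held 26 CG dinucleotides and the GPC5 promoter 33, against 16 at CNTNAP2 and 5 at DPP10. Other named hosts split this way only in part. PTN and CHRM2, with no WDR5 gene-end summit, had 10 each, and MACROD2, with one in both genotypes, had 34. On the other side, NRG3 and PTPRD, with none, had 43 and 40, and EPM2A, with one in both genotypes, had 2. CG reads the same on both strands and was searched with no overlap to another motif. At least 1 CG stood in 98.9% of the 10289 promoters of that length that matched an eligible gene, and their median count was 24. A promoter was matched to 69.3% of host genes, which is below the share of 80% needed for a statement over host genes, so none is made.

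Interior summits were sparser than EMBOW-F summits in the space between genes and denser than those at gene ends. They stood at 12.2 per Mb (12.004 to 12.4) over 1084 Mb of gene interior, and they made up 14.2% of the list on these chromosomes (13.99 to 14.4%). Outside genes and over 5 kb from their ends there were 78361 EMBOW-F summits, or 47.8 per Mb (47.5 to 48.2). Within 5 kb of a gene end there were 1508, or 4.93 per Mb (4.69 to 5.19). The WDR5 lists had the opposite order. KO WDR5 stood at 2.38 per Mb of gene interior, 51.0 within 5 kb of gene ends and 1.74 outside genes, and WT WDR5 at 1.79, 44.6 and 1.26. The rule's limit of 5 kb fell in a sparse stretch without a step, with 93 summits at 5001 to 6000 bp from the nearest end and 87 summits inside genes at 4001 to 5000 bp. The median score was 3.25 in both groups.

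The authors' score for each summit, a −log10 q, was low for most interior summits. Its median was 3.25, with quartiles of 2.27 and 3.86, and 12.5% of the summits (11.9 to 13.03%) reached a q of 1e-05, against 17.96% of EMBOW-F summits outside genes (17.7 to 18.2%). The highest interior score, 51.2, lay in DUX4, a transcription factor gene of the early embryo, on chromosome 4 at position 190179564 and 5790 bp from the gene's end. DUX4 lies in an array of near-identical repeats, so the placement of reads there is uncertain. The next highest scores were far lower. PTN, which encodes a secreted growth factor of neural tissue, had a summit of 14.5 at position 137238191 of chromosome 7. GRIK2, a kainate receptor subunit, and SPAG16 followed with 12.1 each, then CHRM3, a muscarinic receptor, with 11.4 and KLHL1, a protein of the Kelch family in neurons, with 11.2. CCSER1, DPP10, KCNH8, a potassium channel, and NXPH1, a ligand of neurexins, each had 11.1.

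Few genes held these summits, and a small number of long genes held most of them. Of 14144 genes with any base over 5 kb from all gene ends, called eligible here, 818 held at least 1 interior summit, which is 5.78% (5.40 to 6.18%). Of the 3351 eligible genes over 100 kb, 593 did, or 17.7%. A summit inside overlapping genes was counted in each, which gave 13452 pairs of summit and gene. Among the hosts, 219 held 1 summit, 220 held 2 to 4, 222 held 5 to 19, 126 held 20 to 99 and 31 held 100 or more, with a median of 4 and a maximum of 349. The 10 hosts with the most summits held 16.8% of the pairs, the top 50 held 48.5% and the top 100 held 66.9%. The plot of summits against gene span shows this spread.

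**Figure D1:**
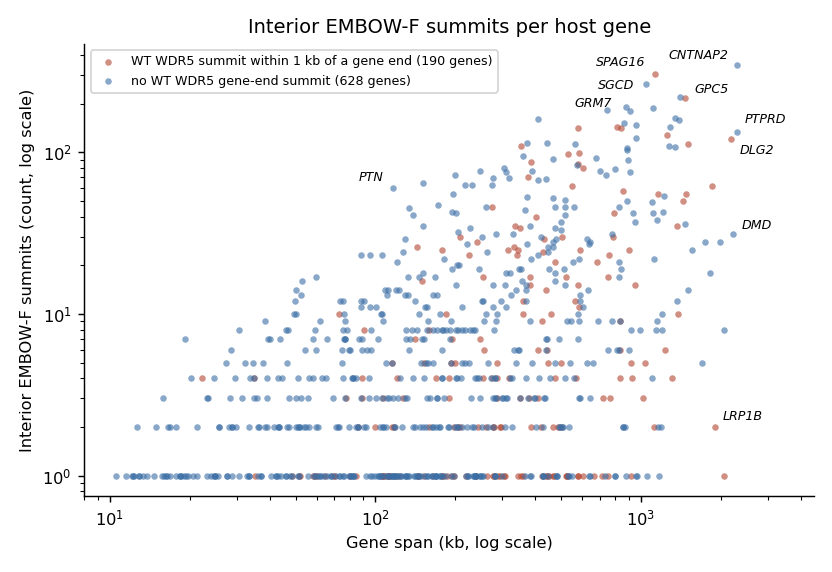
Interior EMBOW-F summits per host gene (count, log scale) against gene span (kb, log scale), with 1 point for each of 818 host genes. Red points are the 190 hosts with a WT WDR5 summit within 1 kb of a gene end and blue points the 628 without one, and CNTNAP2 stands highest with 349 summits over 2304 kb, while PTPRD, at 2299 kb, held 133 and LRP1B, at 1899.6 kb, held 2.

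Host genes were long, and longer genes held more summits per base as well as more in all. The median span was 199.9 kb for hosts, against 40.1 kb for eligible genes without a summit and 24.2 kb for all 19970 protein-coding genes. Eligible genes of 10 to 30 kb held 2.32 summits per Mb (1.90 to 2.82), and genes of 30 to 100 kb held 2.85 (2.65 to 3.08). The density was 6.53 per Mb (6.28 to 6.79) at 100 to 300 kb, 19.9 (19.4 to 20.4) at 300 to 1000 kb and 37.1 (35.9 to 38.3) above 1000 kb. The share of genes that held any summit was 1.05%, 3.09%, 11.2%, 35.6% and 76.8% in the same order of classes, and a longer gene has more bases in which to hold one. Among hosts alone the relation of span to density had the other sign. Span and summit number had a Spearman's rho of 0.443 over the 818 hosts, and span and summits per kb one of -0.395. A short gene enters the hosts with 1 summit at a high value per kb, so the second value follows in part from the choice of hosts. The median host held 0.0330 summits per kb, with quartiles of 0.0109 and 0.0963.

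The genes with the most interior summits included adhesion proteins, receptors and ligands of neurons. CNTNAP2 held 349 summits over 2304 kb, SPAG16 held 307 over 1126 kb and SGCD, which encodes delta-sarcoglycan of the muscle membrane, held 265 over 1040.0 kb. DPP10 followed with 221 and GPC5 with 216. GRM7, a metabotropic glutamate receptor, held 190 and NRG3, a neuregulin, held 188. KHDRBS2, an RNA-binding protein of neurons, held 182, THSD7B held 179, and LRRC4C, a ligand of netrin-G1, held 162. SPAG16 and GPC5 had a WDR5 gene-end summit in both genotypes, and the other 8 had none in KO or WT.

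Within these genes the summits were spread along most of the span. Cut into pieces of 50 kb, SPAG16 had a summit in all 23 pieces, SGCD in all 21, GRM7 in all 18, KHDRBS2 in all 15 and THSD7B in all 19. CNTNAP2 had one in 36 of 47 pieces and GPC5 in 23 of 30. The longest stretch without a summit, gene ends included, was 324 kb in CNTNAP2, at its 3′ end, and 139.5 kb in GPC5. In SGCD it was 27.8 kb. The median spacing between neighbouring summits of a gene was 2.26 kb in SPAG16 and 4.62 kb in LRRC4C.

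**Figure D2:**
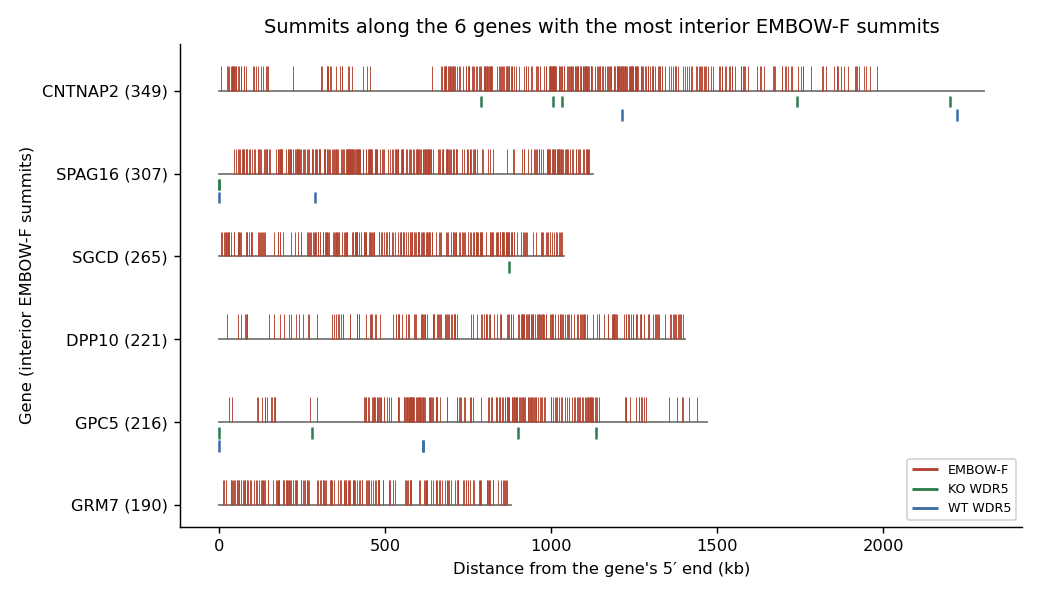
Positions of EMBOW-F (red), KO WDR5 (green) and WT WDR5 (blue) summits along the 6 genes with the most interior EMBOW-F summits, as distance from the gene's 5′ end in kb, with the gene drawn as a grey line. The red marks cover most of each gene with clear gaps in CNTNAP2 and GPC5, and SPAG16 and GPC5 have WDR5 marks at their 5′ end.

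Per kb, the leading genes were shorter and lay in regions dense in EMBOW-F summits. Among genes with at least 100 kb of eligible span and at least 5 summits, PTN led with 0.564 summits per kb (60 summits), followed by CHRM2, a muscarinic receptor, with 0.459 (65 summits). FUT9, a fucosyltransferase, had 0.380 per kb and TACR3, the receptor of neurokinin B, 0.363. PID1 had 0.324, GRXCR1, a gene of the inner ear's hair cells, 0.320, and EPM2A, the glycogen phosphatase laforin, 0.318. XIRP2, an actin-binding protein of striated muscle, had 0.316 and ADGB, a globin gene, 0.305. EPM2A had a WDR5 gene-end summit in KO and in WT, and the other genes named here per kb had one in neither. EMBOW-F stood at 564 summits per Mb inside PTN, against 579 per Mb in its flanks, which are bases outside genes within 500 kb.

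Genes of like length held very different numbers. Of the 10 longest protein-coding genes, RBFOX1, a splicing regulator of neurons and the longest at 2474 kb, held none, MACROD2 held 1, LRP1B, a lipoprotein receptor, held 2 and CSMD1 held 8. CNTNAP2 held 349, PTPRD, a receptor phosphatase of synapses, 133, DLG2, a synaptic scaffold protein, 120, CTNNA3, alpha-T-catenin, 62, DMD, which encodes dystrophin, 31 and EYS, a gene of photoreceptors, 28. The flanks of RBFOX1 held 1.57 EMBOW-F summits per Mb and those of MACROD2 3.43, but the flanks of LRP1B held 67.7 per Mb. DAB1, an adaptor of the reelin pathway, and FHIT, a hydrolase gene at a fragile site, were the longest genes after RBFOX1 with no summit, and no EMBOW-F summit lay in their flanks. SCRIB, which encodes EMBOW, WDR5 itself and the mitotic kinesin KIF2A each held 0 interior summits and had WDR5 gene-end summits in KO and WT.

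Host genes had a lower share with WDR5 at an end than other eligible genes had. A KO WDR5 summit lay within 1 kb of an end in 215 of 818 hosts, or 26.3% (23.3 to 29.4%), against 60.8% of eligible genes without an interior summit (59.97 to 61.6%), and over all eligible genes the share was 58.8%. For WT the hosts were 190, or 23.2% (20.4 to 26.3%), against 57.1% of the other genes (56.2 to 57.9%), with 55.1% over all eligible genes. With WDR5 summits at a q of 1e-05 or less, the WT share of hosts was 14.5%. The share of the other genes at that q was not computed, so 14.5% is not comparable with the shares above. With all WDR5 summits, 167 hosts had a gene-end summit in both genotypes and 580 in neither. Another 48 had one in KO and not WT, and 23 in WT and not KO. The share did not follow the number of summits per host in one direction. In WT it was 26.9% of hosts with 1 summit, 21.8% with 2 to 4, 17.1% with 5 to 19, 28.6% with 20 to 99 and 29.0% (14.2 to 48.0%) of the 31 with 100 or more. Hosts with more summits were also longer, with a median span of 119 kb in the first of these classes and 961 kb in the last.

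Set per base, genes with WDR5 at an end held fewer interior summits, and the gap narrowed with gene length. Genes with a KO WDR5 gene-end summit held 5.67 interior EMBOW-F summits per Mb (5.48 to 5.85), against 21.1 (20.6 to 21.5) in genes without one, a ratio of 0.269 (0.259 to 0.280). For WT the densities were 5.97 per Mb (5.78 to 6.17) with and 19.4 (19.02 to 19.8) without, a ratio of 0.308 (0.296 to 0.320). Genes of 10 to 30 kb held 0 interior summits over 2885 genes with a KO gene-end summit, against 103 in 2435 genes without one. The WT ratio was 0.0363 (0.00970 to 0.0960) at 10 to 30 kb, 0.0512 (0.0374 to 0.0687) at 30 to 100 kb and 0.119 (0.106 to 0.133) at 100 to 300 kb. It was 0.431 (0.408 to 0.454) at 300 to 1000 kb and 0.940 (0.876 to 1.01) above 1000 kb, where the interval includes 1. In that longest class, SPAG16 and GPC5 held 307 and 216 of the 1173 interior summits of the 24 genes with a WT gene-end summit. The ratio without SPAG16 and GPC5 was not computed, and the interval does not cover differences between genes. Above 1000 kb the KO ratio was 0.776 (0.723 to 0.833), over 28 genes with and 41 without.

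**Figure D3:**
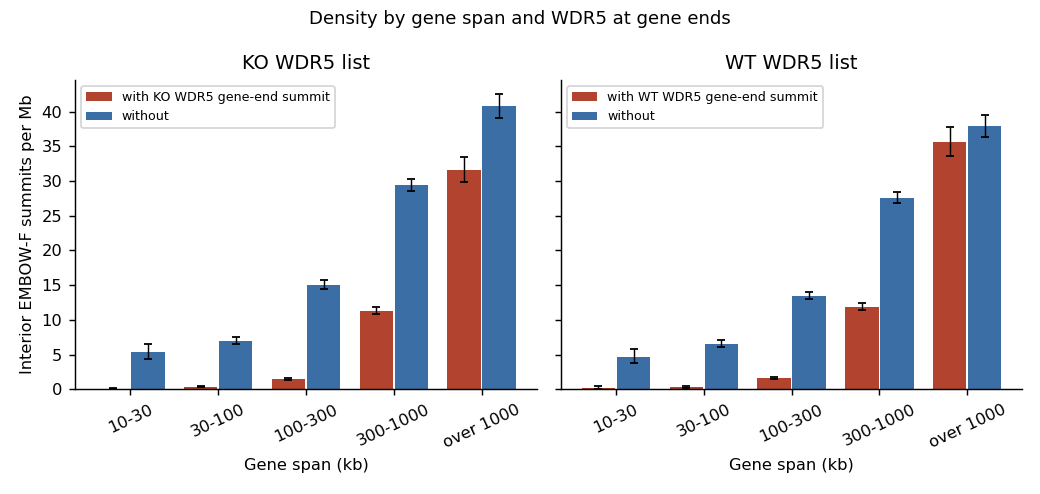
Interior EMBOW-F summits per Mb by class of gene span, for genes with (red) and without (blue) a WDR5 summit within 1 kb of a gene end, in the KO list (left) and the WT list (right), with 95% counting intervals. The red bars are lowest against the blue bars in short genes and come closest to them above 1000 kb, at 35.6 and 37.9 per Mb in the WT panel.

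Inside long genes the gap was widest next to the 5′ end. Strand was known for 623 of the 771 genes over 300 kb, and each of their bases was assigned to the nearer end. On the 5′ side, genes with a WT WDR5 gene-end summit held 4 interior summits at 5 to 20 kb from the start, or 0.887 per Mb (0.242 to 2.27), against 17.4 per Mb (13.9 to 21.6) in genes without, a ratio of 0.0509 (0.0136 to 0.135). At 50 to 100 kb they held 10.1 per Mb against 30.9, and over 500 kb from the start 41.0 per Mb (35.0 to 47.7) against 54.5 (49.2 to 60.1). On the 3′ side the ratio was higher at every distance. At 5 to 20 kb from the 3′ end the densities were 14.01 per Mb (10.8 to 17.9) with and 26.1 (21.7 to 31.2) without, a ratio of 0.536 (0.389 to 0.733). Over 500 kb from that end the ratio was 1.17 (0.972 to 1.403). In the KO list the ratio at 5 to 20 kb was 0.104 (0.0457 to 0.208) on the 5′ side and 0.404 (0.291 to 0.555) on the 3′ side.

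**Figure D4:**
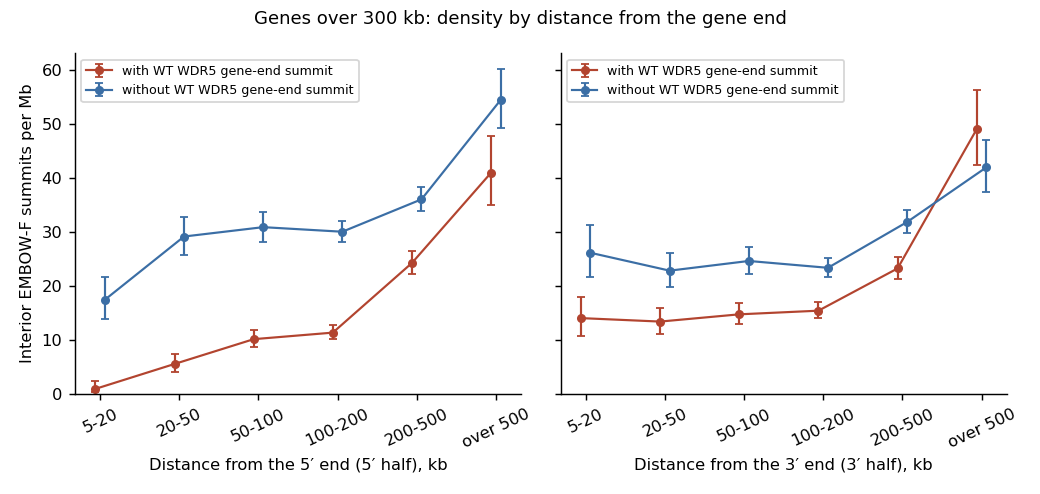
Interior EMBOW-F summits per Mb in genes over 300 kb, by distance in kb from the 5′ end (left) and from the 3′ end (right), with each base assigned to the nearer end, for genes with (red) and without (blue) a WT WDR5 gene-end summit and 95% counting intervals. On the left the red line starts at 0.887 per Mb and reaches 41.0 per Mb, and on the right the lines cross beyond 500 kb.

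The number of summits in a gene varied with the region in which it lies. EMBOW-F stood at 12.2 summits per Mb in the interiors of eligible genes, against 35.1 per Mb in their flanks (over 5 kb from gene ends), a ratio of interior to flank of 0.348 (0.341 to 0.355). The ratio was 0.111 (0.0901 to 0.134) for genes of 10 to 30 kb and 0.623 (0.592 to 0.655) above 1000 kb. With flanks of 100 kb in place of 500 kb the ratio over all eligible genes was 0.771. Of the 157 hosts with at least 20 summits, 71 were denser inside than in their flanks, or 45.2% (37.3 to 53.4%), with medians of 111 per Mb inside and 116 per Mb in the flanks. These hosts were chosen for a high count inside, which raises the inside value alone. Named genes stood apart from their surroundings in both directions. GPC5 held 148 summits per Mb inside, against 19.2 in its flanks, DLG2 held 55.5 against 15.2, and SPAG16 held 275 against 79.7. CNTNAP2 held 152 summits per Mb inside, against 324 in its flanks, CHRM3 held 187 against 420, KHDRBS2 248 against 329 and EYS 14.3 against 168.

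Genes with and without WDR5 also differed in their flanks, by less than in their interiors. Counting shared bases once, interiors held 6.02 EMBOW-F summits per Mb for genes with a WT gene-end summit and 19.3 for genes without. Their flanks held 23.4 per Mb with and 33.7 without. The interior stood at 0.257 of the flank (0.248 to 0.267) with WT WDR5 and 0.573 (0.560 to 0.586) without, and at 0.245 and 0.604 for KO. Of 10599 genes whose flanks held no EMBOW-F summit, 0.708% were hosts, and of 530 with flanks above 100 per Mb, 45.7% were. Where flanks held 10 to 50 summits per Mb the interior densities differed little, at 15.3 per Mb with WT WDR5 and 16.2 without. The host counts in that class did differ, at 61 of 559 genes with WT WDR5 and 191 of 635 without. Where flanks held 50 to 100 per Mb the interior densities were 24.5 and 44.7 per Mb. Where flanks held over 100 per Mb they stood at 50.002 and 105 per Mb. Over all genes with flanks above 50 per Mb, a limit chosen after seeing the data, the ratio of genes with to genes without WDR5 was 0.399 for KO and 0.465 for WT. The part of gene length and region in the WDR5 difference was not tested beyond these classes.

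The same crowding appeared in windows of 1 Mb. Interior summits lay in 691 of 3042 windows, and the 63 fullest windows held 50% of them. The fullest, at 213 to 214 Mb of chromosome 2, which includes the start of SPAG16, held 227 interior summits and 1 outside genes. Across the 1635 windows with at least 200 kb of interior and 200 kb outside genes, interior and outside densities had a Spearman's rho of 0.672, as a description, since neighbouring windows share their library and region. Of the windows among them with an interior summit, 83.2% also had one outside genes.

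Chromosomes differed widely. Chromosomes 5, 2 and 7 had the highest interior densities, at 22.4, 22.3 and 22.2 summits per Mb, while chromosome 17 held 1 interior summit, in CA10, over 34.3 Mb and chromosome 22 held 0 over 15.2 Mb. Of the chromosomes, 15 had at least 100 interior summits and held 13057 of them. In each of the 23 the interior density was below the density outside genes, and in these 15 the ratio lay between 0.119 on chromosome 13 and 0.352 on chromosome 2. The ratio of genes with to genes without a WT gene-end summit was below 1 on 13 of the 15, and above 1 on chromosome 13 at 2.88 and chromosome 18 at 5.88. In KO it was below 1 on the same number, with 2.26 on chromosome 13 and 5.56 on chromosome 18. A single gene decided the value on chromosome 13 and not on chromosome 18. GPC5 held 216 of the 294 interior summits of chromosome 13, and without it the ratio was 0.0665 (0.0236 to 0.152) for KO and 0.0859 (0.0305 to 0.196) for WT. On chromosome 18, NOL4 held 70 of 158, KIAA1328 40 and CCDC178 30, and each of these 3 genes had a WDR5 gene-end summit in KO and WT. Without NOL4 the ratio was still above 1, at 2.84 (1.68 to 5.07) for KO and 3.01 (1.77 to 5.37) for WT. NOL4, KIAA1328, CCDC178 and CA10 are outside the naming rule and were singled out after their values were seen.

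**Figure D5:**
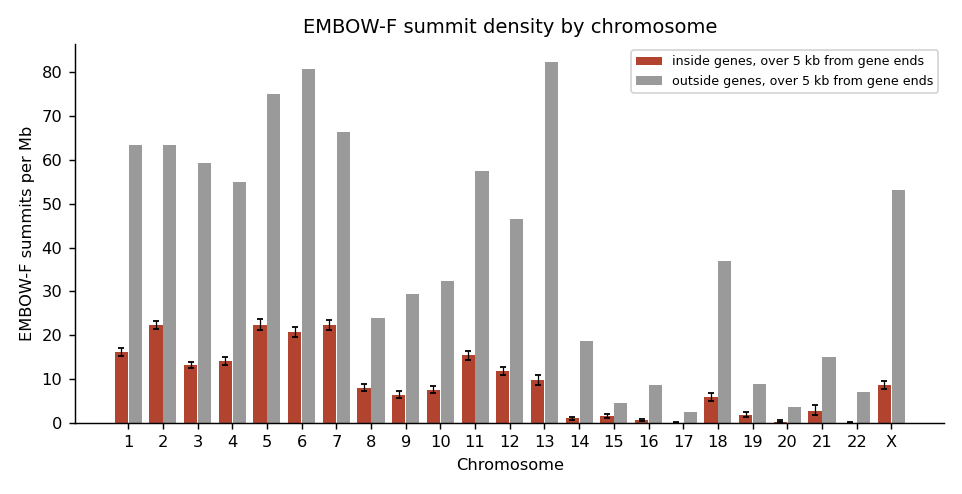
EMBOW-F summits per Mb by chromosome inside genes (red, with 95% counting intervals) and outside genes (grey), in both cases over 5 kb from gene ends. Interior density was highest on chromosomes 5, 2 and 7 and at or near 0 on chromosomes 17, 20 and 22, where the density outside genes was also low.

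The gene lists differed widely, both between and within lists. These lists were chosen with results of these data known, so their counts are read beside the 5.78% of all eligible genes and the 17.7% of those over 100 kb. Neuronal adhesion and synapse organiser genes, with CNTNAP2 and NRG3 in front, hosted in 38 of 46 cases and held 42.8 summits per Mb (41.0 to 44.6), against 15.5 per Mb over all eligible genes above 100 kb. Their median span was 1113 kb, and eligible genes over 1000 kb as a whole hosted in 76.8% of cases with 37.1 per Mb, close to the list's 82.6% and 42.8 per Mb. Glutamate receptor genes hosted in 14 of 25 cases and held 80.3 per Mb (74.6 to 86.3), led by GRM7. GABA and glycine receptor genes, the inhibitory receptors, hosted in 10 of 22 cases with 48.4 per Mb (40.9 to 57.0), led by GABRB2 with 46 summits and GABRA3 with 31. Potassium channel genes hosted in 12 of 75 cases with 37.0 per Mb (33.4 to 40.8), led by KCNH8 with 77 summits and KCNN2, a calcium-activated channel, with 68.

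Other excitable-cell and structural lists were mixed. Muscle structural genes held 57.3 summits per Mb (52.3 to 62.5), but 7 of 28 hosted and SGCD and XIRP2 held 265 and 114 of the 498 summits. Sodium and calcium channel genes hosted in 7 of 25 cases with 8.38 per Mb (6.16 to 11.1), led by SCN9A, a channel of pain-sensing neurons, with 22 summits and SCN7A with 12. Cadherin genes hosted in 10 of 27 cases with 9.31 per Mb, led by CDH18 with 49 and PCDH11X with 19. Axon guidance genes hosted in 10 of 38 with 6.30 per Mb, led by the receptor ROBO2 with 28 and SEMA5A, a semaphorin, with 19. Collagen and laminin genes hosted in 9 of 34 with 14.3 per Mb, led by COL24A1 with 24 and COL5A2 with 23. Axonemal dynein genes hosted in 4 of 13 with 16.1 per Mb, led by DNAH7 with 26 and DNAH5 with 18.

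Genes that most cells use stood at the low end although they are long. Of 60 such genes with a median span of 186 kb, 1 hosted, COP1, a ubiquitin ligase, with 1 summit, or 0.0732 per Mb (0.00185 to 0.408), and 49 of the 60 had a WT WDR5 gene-end summit. COMPASS and WDR5 partner genes hosted in 0 of 24 cases, over 1.68 Mb of interior, with a counting interval of 0 to 2.195 summits per Mb. These genes were shorter, with a median span of 42.6 kb, and 21 of the 24 had a WT WDR5 gene-end summit. Of all genes of 30 to 100 kb with such a summit 0.623% hosted, so 0 of 24 does not set this list apart. Genes at common fragile sites, which are long and late to replicate, hosted in 10 of 21 cases with 17.4 per Mb (15.8 to 19.03) and spanned the whole range. Their median span was 1113 kb. At 47.6% and 17.4 per Mb they stood below all eligible genes over 1000 kb, at 76.8% and 37.1 per Mb. DPYD, the enzyme that breaks down pyrimidines, held 141 and DLG2 held 120, while FHIT held 0 and MACROD2 1. WDR5 gene-end summits were common in that list, at 15 of 21 genes in KO and 15 in WT, and 7 of its 10 hosts had one in KO and 8 in WT.

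Further gene families fell on both sides of the 12.2 summits per Mb of all eligible genes. Cytochrome P450 and UGT genes, which encode enzymes of drug and steroid metabolism, hosted in 12 of 34 cases with 31.9 per Mb (22.8 to 43.4), led by UGT2B7 with 9 summits and CYP2C19 with 6. These genes are short, with a median span of 32.3 kb, and close copies of one another, so reads may be shared between them. ADAM and ADAMTS metalloprotease genes hosted in 10 of 40 cases with 10.4 per Mb, led by ADAM29 with 17 and ADAMTS12 with 12. Genes of cyclic nucleotide signalling hosted in 10 of 31 with 6.99 per Mb, led by the phosphodiesterases PDE4D with 25 and PDE4B with 11. Solute carrier genes hosted in 23 of 327 cases, or 7.03%, with 13.9 per Mb, led by SLC4A10, a bicarbonate transporter of neurons, with 95 and the readthrough gene SLCO1B3-SLCO1B7 with 63. ZNF genes hosted in 31 of 449 cases, or 6.90%, with 25.4 per Mb, and ZNF385D and ZNF804B held 147 and 142 of their 405 summits. Adhesion G protein-coupled receptor genes hosted in 5 of 28 cases with 5.04 per Mb, led by ADGRB3 with 17 and ADGRL4 with 2. TMEM genes hosted in 5 of 146 cases, or 3.42%, with 7.42 per Mb, led by TMEM232 with 34 and TMEM117 with 11.

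Interior EMBOW-F summits seldom fell on a WDR5 summit, but WDR5 was also sparse inside genes. The share that WDR5 density alone would give was not computed, so the shares below show neither avoidance nor attraction. Within 500 bp lay a KO WDR5 summit for 22 of the 13233 (0.166%, 0.104 to 0.252%) and a WT WDR5 summit for 19 (0.144%, 0.0865 to 0.224%), and 0 had one in both. The shares were 0.578% in KO and 0.526% in WT for EMBOW-F summits outside genes, and 1.72% in KO and 1.86% in WT for those within 5 kb of gene ends. Counting intervals did not overlap between interior summits and the summits of either other class. WDR5 density itself differed between the classes, and the shares were not adjusted for it, so they do not rank the classes. In WT it was 1.79 per Mb of gene interior, 44.6 within 5 kb of gene ends and 1.26 outside genes. In KO it was 2.38, 51.0 and 1.74. The pairs lay in 18 host genes in KO and 16 in WT, and their WDR5 partners had a median −log10 q of 2.64 in KO and 3.31 in WT, below the medians of 4.50 and 4.97 over all interior WDR5 summits of KO and WT. CNTNAP2 held 2 KO pairs and 1 WT pair, and DPYD held 1 KO pair and 2 WT pairs that shared 1 WDR5 summit. KLHL1 held 2 WT pairs, with the EMBOW-F summit at position 70033356 of chromosome 13 lying 4 bp from its partner. PTPRN2, singled out after its values were seen, paired an EMBOW-F summit of 1.76 with a WT WDR5 summit of 37.3.

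WDR5 itself was sparse inside the host genes. Interior WDR5 summits stood at 0.758 per Mb (0.657 to 0.871) in hosts and 2.90 per Mb (2.78 to 3.02) in the other eligible genes for KO. For WT they stood at 0.493 per Mb (0.412 to 0.585) in hosts and 2.198 per Mb (2.10 to 2.30) in the others. Restricted to genes over 100 kb the values were 0.765 in hosts and 2.17 in others for KO, and 0.491 and 1.70 for WT.

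The authors' deposited list of transcripts newly bound by WDR5 in an EMBOW-dependent way, made by a rule that the sources used here do not give, named 91 hosts by a transcript that reached within 1 kb of a gene end, or 11.1% (9.05 to 13.5%), and 9.25% of the other eligible genes (8.77 to 9.76%). Among genes of 300 to 1000 kb the shares were 15.6% of hosts (11.3 to 20.7%) and 8.41% of the others (6.02 to 11.4%), and among genes of 30 to 100 kb 6.51% (3.29 to 11.3%) and 9.50% (8.73 to 10.3%). The intervals overlapped in each of these 3 comparisons. The intervals also overlapped at 100 to 300 kb, with 10.7% of hosts and 9.52% of the others, and above 1000 kb, with 10 of 53 and 1 of 16. They did not among genes of 10 to 30 kb, where 0 of 56 hosts (0 to 6.38%) and 8.97% of the others (8.21 to 9.77%) were named. In that class 55 of the 56 hosts had no WDR5 gene-end summit in KO or WT, against 41.6% of the others. The list is itself one of WDR5 binding, and the part of this in the difference was not tested.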

How the data were processed

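The values used were 3 deposited summit lists and 1 deposited list of 18665 transcripts. The submitters' processing notes name build hg38 and the tools deepTools 3.5.1, MACS2 2.2.7.1 and Bowtie2 2.4.5, with no role, setting or control library. Each line of a summit list is 1 bp wide with a score that the authors deposited, read here as a −log10 q value because its form and lowest values are those of a MACS2 summit list. The transcript list's deposited score is 0 throughout and was not used. The EMBOW-F list belongs to the whole series and was assigned to the FLAG precipitation by its name. Of the 10 samples, each the 1 library of its group, those for H3K4me3 and the inputs were not analysed here. The lists hold no read counts, so depth is unknown.

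Gene spans came from RefSeq GRCh38.p14, the build of the files, and strand from its promoter table. Eligible bases were inside a protein-coding span and over 5 kb from every gene end. Flanks were bases outside genes within 500 kb of a gene, over 5 kb from gene ends. Densities have exact Poisson intervals, shares Clopper-Pearson intervals and ratios exact conditional binomial intervals, all at 95% and for counting error only. With 1 library a group, no p-values were computed. The planned sequences around summits need a genome and were not made. Promoters are shown in their place.

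Named were the 10 genes with the most summits, the 10 with the most per kb (at least 100 kb eligible and 5 summits), hosts of the 10 highest scores, the 10 longest genes, the 3 longest eligible genes without a summit, the top 2 members of each of 20 lists, and SCRIB, WDR5 and KIF2A. Some genes under this rule are left out. The members and lists were chosen with earlier results of these data known. Alternatives were other distances from gene ends, a stricter q, summits joined within 1 kb, LOC genes or chromosome X left out, other WDR5 windows and flanks, and 3 restrictions added after seeing the data. Intervals were computed with scipy 1.17.1 in Python 3.11.15, with pandas 2.3.3, numpy 2.4.6 and, for figures, matplotlib 3.10.9. The counting steps were tested on simulated data with 0 miscounted genes.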

Additional observations from a re-analysis of the deposited data

How the results depend on the processing

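No paired analysis was possible because each group has 1 library and no result comes from a test. Over 50 alternatives, 26 stayed within the interval of the value reported and 24 moved outside it. A reversed direction could be scored only for the ratios, not for the density or the shares, and 0 ratios reversed. At 20 kb from gene ends the ratio of genes with to genes without a gene-end summit was 0.309 for KO and 0.353 for WT, the density 15.3 per Mb, the ratio of interior to flank 0.382 and the share of hosts with WT WDR5 26.9%. At 2 kb the density was 11.5 per Mb and the flank ratio 0.328. With a q of 1e-05 or less the EMBOW-F density was 1.52 per Mb, the WT ratio 0.327 and the flank ratio 0.290. With summits within 1 kb counted once they were 10.9 per Mb and, against the flank, 0.356. Flanks of 100 kb gave 0.771. A WDR5 window of 5 kb gave ratios of 0.244 for KO and 0.252 for WT and a host share of 27.1%. WDR5 summits with a q of 1e-05 or less gave 0.293, 0.270 and 14.5%. The share of the other genes was not computed for any alternative setting. A partner distance of 5 kb gave 0.589% of interior summits with a WT WDR5 summit. Chosen after seeing the data, genes with flanks above 50 per Mb gave ratios of 0.399 for KO and 0.465 for WT, and genes over 1000 kb 0.776 and 0.940. The cause of each shift was not tested. The main limits are 1 library a list, unknown depth, no replicate check, a score read from its values, and a gene table that counts overlapping genes separately. Chromosomes 14 to 17 and 19 to 22 hold too few interior summits for values of their own.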

Other observations

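Host genes often stood next to one another. Along the chromosomes, the 818 hosts fell into 526 runs of neighbouring eligible genes that all held an interior summit. Of these, 162 runs of 2 or more genes held 454 of the hosts, or 55.5%. Overlapping genes that share a summit counted as neighbours, and no reference share was computed. The longest run, 34 genes from PCDHA1 to PCDHGA12 on chromosome 5, is the nested clustered protocadherin locus, where 126 pairs of summit and gene came from 9 distinct summits. Some of the other runs held members of 1 family, such as the 7 ZNF genes from ZNF43 to ZNF492 on chromosome 19, with 15 pairs. The 7 hosts from TTC21B to STK39 on chromosome 2 (165873362 to 168247595) included SCN1A, SCN9A, SCN7A and XIRP2 and held 241 pairs. The 7 hosts from PDE3A to SLCO1A2 on chromosome 12 (20368537 to 21419634), which include the organic anion transporters SLCO1B1 and SLCO1B3, held 148 pairs, and 0 of them had a WDR5 gene-end summit in KO or WT. The 5 hosts from CPS1 to VWC2L on chromosome 2, with ERBB4, IKZF2 and SPAG16 between them, held 392 pairs, and 3 of the genes had a gene-end summit in KO and 3 in WT. These runs were singled out after their values were seen.

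Interior summits were also close to one another. The median distance to the nearest EMBOW-F summit was 2438 bp for interior summits and 1776 bp for those outside genes. Another lay within 1 kb of 19.4% of interior summits and over 100 kb from 1.56%, and the shortest gap between 2 interior summits was 260 bp.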
